A study of Mus musculus with 11 samples.

Results

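A set of 10 genes of the response to oxidative stress was followed in 3 lines of AML12 cells, a mouse hepatocyte line. It holds *Nfe2l2*, which encodes the transcription factor NRF2, *Keap1*, which encodes its inhibitor, and 8 genes that NRF2 is known to act on, namely *Nqo1*, *Hmox1*, *Srxn1*, *Txnrd1*, *Taldo1*, *Tkt*, *Pgd* and *Sqstm1*. The genes were chosen by name, with earlier results of these data known, and are 10 of the 24849 genes of the deposited table. Each has 1 entry in it except *Pgd*, which has 2, whose counts were added up.

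The 3 lines were WT AML12 cells, a line without TXNDC5 (KO) and a line made to overexpress TXNDC5 (KI), an endoplasmic reticulum protein with thioredoxin domains. There were 4 KO, 3 WT and 4 KI libraries of polyadenylated RNA. According to the study's methods, the KO cells were made with a CRISPR/Cas9 plasmid that cuts in the fifth exon of *Txndc5* and a repair plasmid that put in a puromycin resistance gene, and resistant cells were selected with puromycin. The labels call their genotype "TXNDC5 Knockdown". For the KI cells, labelled "TXNDC5 Knockin", the series gives overexpression from the ROSA26 safe-harbour site. The lines were grown, per the methods, in medium with insulin, transferrin, selenium and dexamethasone, so these agents were shared by all groups as far as the methods say. Nothing in the labels says that libraries of a line came from separate cultures, and p-values then measure only the spread between these libraries, which may be technical. Each line is a single edited or parental population, and what else differs between the lines cannot be told apart from the edit.

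The libraries held between 29840366 and 38422243 counts. Levels are given as CPM, the counts relative to library size, scaled by edgeR's TMM method, and a gene was called when it had an adjusted p under 0.05 in the quasi-likelihood test of edgeR, by the Benjamini-Hochberg method over all genes tested. *Txndc5* was at 8.50 to 12.9 CPM in the KO, 138.3 to 147.0 CPM in the WT and 158.1 to 179.5 CPM in the KI libraries. It fell by 3.81 on the log2 scale in the KO against the WT cells (SE 0.15, edgeR adjusted p = 4.09e-08). Every KI library lay above every WT library, but the log2 difference of 0.24 (SE 0.12, edgeR adjusted p = 0.136) was not called, so the overexpression named by the label is not a called difference at the RNA level. All 8 hepatocyte markers listed had counts, with summed levels of 9034 to 11025 CPM in the KO, 6988 to 8965 CPM in the WT and 7743 to 9274 CPM in the KI libraries. Single markers moved far more than the sums. *Alb* was at 4114, 512.5 and 245.7 CPM in the KO, WT and KI cells, *Apoa1* at 23.1, 1.60 and 0.778 CPM, *Hnf4a* at 275.2, 106.5 and 132.5 CPM, and *Trf* at 1346, 2974 and 1409 CPM. Of 4 bile duct markers 3 were above 1 CPM, with *Epcam* at 0 in all libraries. Their sums were 1086 to 1221 CPM in the KO, 861 to 1091 CPM in the WT and 709 to 974 CPM in the KI libraries. They did not move together. In the KO, WT and KI cells *Krt7* was at 17.0, 177.3 and 117.5 CPM, *Krt19* at 1097, 769.5 and 746.9 CPM, and *Sox9* at 34.1, 46.5 and 36.1 CPM. The 5 macrophage and leukocyte markers summed to 6.73 to 9.20 CPM in the WT, 1.32 to 2.21 CPM in the KO and 2.52 to 5.65 CPM in the KI libraries, with *Adgre1* and *Clec4f* at 0, and the part of any of these markers in the results below was not tested. Stellate cell and endothelial markers summed to at most 1.15 CPM.

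NRF2 is held in the cytosol by KEAP1, an adaptor that brings it to a CUL3 ubiquitin ligase for constant degradation. Electrophiles and oxidants react with cysteines of KEAP1, NRF2 then accumulates, pairs with a small MAF protein in the nucleus and binds antioxidant response elements (ARE) of its target genes. BACH1, a haem-sensing repressor, competes for such elements, most strongly at *Hmox1*, and the protein p62, encoded by *Sqstm1*, can draw KEAP1 into autophagosomes. In hepatocytes the pathway is known for the detoxification of quinones and for the supply of NADPH, thioredoxin and glutathione.

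The sequences before the start sites of 3 of these genes are shown because they hold, or lack, the letters of an ARE close to the start. Windows of 250 bases before and 50 after a start site were taken from RefSeq (GRCm38.p6), in which 9 of the 10 genes had 12 windows. *Hmox1* had none. Both strands were searched for the ARE core TGACNNNGC, for TGANTCA, which the factors AP-1 and MAF also bind, and for the longer TGANTCAGC, of which TGANTCA is a part. In the 250 bases below, capitals mark the matches. *Srxn1* (chr2:152105274-152105523, plus strand) held TGAGTCA starting 102 bases and 45 bases before the start site, the second within TGAGTCAGC. *Nfe2l2* (chr2:75704664-75704913, minus strand) held TGACTCCGC starting 240 bases before its own start site. *Nqo1* (chr8:107403206-107403455, minus strand) held none of the 3 patterns.
Srxn1: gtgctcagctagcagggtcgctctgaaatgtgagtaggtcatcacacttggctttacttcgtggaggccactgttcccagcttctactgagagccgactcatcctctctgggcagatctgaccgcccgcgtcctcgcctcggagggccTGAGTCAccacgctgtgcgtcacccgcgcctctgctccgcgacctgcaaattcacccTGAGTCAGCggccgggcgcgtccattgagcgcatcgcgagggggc
Nfe2l2: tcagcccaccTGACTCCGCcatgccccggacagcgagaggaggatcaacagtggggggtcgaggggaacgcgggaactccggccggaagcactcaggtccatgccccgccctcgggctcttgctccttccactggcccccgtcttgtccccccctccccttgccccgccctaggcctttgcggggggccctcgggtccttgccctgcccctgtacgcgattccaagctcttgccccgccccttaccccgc
Nqo1: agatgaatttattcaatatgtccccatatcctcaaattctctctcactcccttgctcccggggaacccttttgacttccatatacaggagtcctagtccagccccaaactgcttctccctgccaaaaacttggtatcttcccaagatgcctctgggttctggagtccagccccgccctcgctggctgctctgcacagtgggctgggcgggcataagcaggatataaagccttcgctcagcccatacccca

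Over the full windows, the ARE core was found in 4 of the 12 windows, those of *Nfe2l2*, *Srxn1*, *Txnrd1* and *Pgd*, against 12.4% of all 32851 RefSeq windows. TGANTCA was found in 1 of the 12 windows against 7.81% of all windows, and TGANTCAGC in the same *Srxn1* window against 1.19%. A match is a description of letters, and a window without one says nothing about elements further away.

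In the KO cells, 8 of the 10 genes were higher than in the WT cells and 2 were lower. *Nfe2l2* and *Keap1* rose together, the targets *Nqo1*, *Srxn1*, *Txnrd1*, *Taldo1*, *Pgd* and *Sqstm1* rose, and *Hmox1* and *Tkt* fell. All 10 were called, where 55.1% of all 13359 genes tested were called (26.7% higher and 28.4% lower), and in all 10 the KO and WT libraries did not overlap (8 higher and 2 lower), as in 55.3% of genes tested (28.3% higher and 27.1% lower). The median log2 fold change of the 10 genes was 0.67, also with *Nqo1* at the bound given below, against -0.03 over all genes tested. Because the 10 genes were chosen with earlier results of these data known, values over all genes are given here for scale only. In bulk RNA, fewer expressing cells and less RNA per cell cannot be told apart. In the KI cells 4 of 9 genes tested were called higher than in the WT and 2 lower, where 42.3% of genes were called (21.2% higher, 21.0% lower), and their median was 0.25 against -0.02. In 8 of the 10 the KI and WT libraries did not overlap (5 higher and 3 lower), as in 44.7% of genes tested (23.4% higher and 21.3% lower). Between the edited lines, 6 of 10 were called higher in the KO than in the KI cells and 1 lower, where 54.0% of genes were called (27.0% in each direction), and their median was 0.37 against 0.00. In 7 of the 10 the KO and KI libraries did not overlap (6 higher and 1 lower), as in 48.6% of genes tested (24.2% higher and 24.4% lower). The comparisons with the WT share the 3 WT libraries, and each pair of comparisons shares a line.

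**Figure D1:**
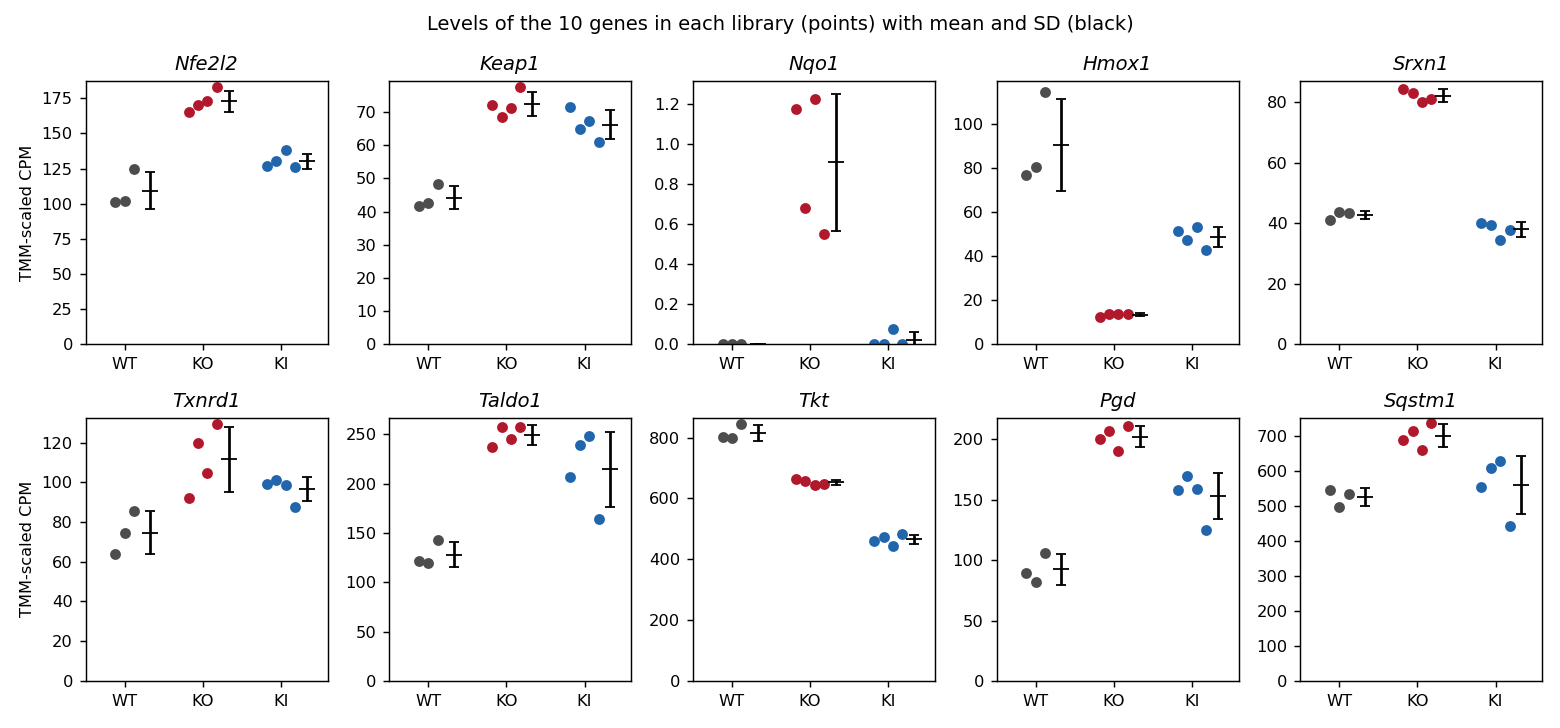
Level of each of the 10 genes in TMM-scaled CPM (vertical axis, from 0, on a scale of its own for each gene) in the 3 WT, 4 KO and 4 KI libraries (points), with the mean and SD of each line in black. No KO library overlaps a WT library for any of the genes: *Hmox1* and *Tkt* lie lower in the KO and the other 8 higher, with *Nqo1* at 0 in all WT libraries.

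*Nfe2l2*, the gene of NRF2 itself, was at 165.3, 170.6, 173.1 and 183.0 CPM in the KO libraries, 101.4, 101.8 and 124.4 CPM in the WT libraries, and 126.7, 130.3, 138.0 and 125.9 CPM in the KI libraries. The KO libraries were the highest, and the KI libraries lay just above the highest WT library. The KO mean of 173.0 ± 7.40 CPM (SD, n = 4) was 1.58 times the WT mean of 109.2 ± 13.2 CPM (SD, n = 3), or 0.64 on the log2 scale (SE 0.12, edgeR adjusted p = 0.000984). Against the KI cells the log2 fold change was 0.41 (SE 0.08, edgeR adjusted p = 0.000384). The KI mean was 1.19 times the WT mean, and the log2 difference of 0.25 (SE 0.13, edgeR adjusted p = 0.136) was not called. It was called without WT replicate 8 (0.36, edgeR adjusted p = 0.0166), the WT library with the most *Nfe2l2*.

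*Keap1*, whose product takes NRF2 to degradation, was at 72.1, 68.7, 71.3 and 77.5 CPM in the KO, 41.8, 42.6 and 48.2 CPM in the WT, and 71.6, 64.9, 67.3 and 61.0 CPM in the KI libraries. Both edited lines lay above the WT line in all libraries and overlapped each other. The log2 fold change was 0.69 in the KO (SE 0.11, edgeR adjusted p = 0.000452) and 0.58 in the KI cells (SE 0.13, edgeR adjusted p = 0.0035) against the WT, and the KO and KI cells were not called different (0.13, SE 0.08, edgeR adjusted p = 0.202).

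*Nqo1* encodes the quinone reductase that is a standard readout of NRF2 activity. Its counts were 42, 23, 41 and 24 in the 4 KO libraries, or 1.18, 0.681, 1.23 and 0.552 CPM. No count was found in the 3 WT libraries, and the KI libraries held 0, 0, 3 and 0 counts. *Nqo1* RNA was thus found in every KO library, at a level of about 1 CPM. The 130 counts of the KO libraries together were at least 22.4-fold higher than the floor of 3 counts over the WT group (0.889 against 0.0397 CPM), and 42.4 times the level of the KI group, with a counting interval of 14.2 to 208 (95%), which covers counting error only. Both differences were called (edgeR adjusted p = 0.00064 against the WT and 0.000112 against the KI cells). In the KI against WT comparison *Nqo1* had too few counts to be tested.

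*Hmox1* encodes haem oxygenase 1, the inducible enzyme that opens the haem ring. It was at 12.5, 13.7, 13.7 and 13.7 CPM in the KO libraries, 76.8, 80.3 and 114.4 CPM in the WT libraries, and 51.3, 47.3, 53.4 and 42.9 CPM in the KI libraries. The 3 lines did not overlap, with the WT libraries highest and the KO libraries lowest. The KO mean was 0.148 times the WT mean (log2 fold change -2.77, SE 0.15, edgeR adjusted p = 3.14e-07). The KI mean was 0.539 times the WT mean (-0.89, SE 0.16, edgeR adjusted p = 0.000783). Between the edited lines the log2 fold change was -1.86 (SE 0.10, edgeR adjusted p = 1.13e-09).

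*Srxn1* encodes sulfiredoxin, which repairs overoxidized peroxiredoxins, and its start site window holds the TGAGTCAGC shown above. Its levels were 84.6, 83.2, 80.0 and 81.2 CPM in the KO, 41.1, 43.7 and 43.4 CPM in the WT, and 40.2, 39.5, 34.5 and 37.9 CPM in the KI libraries. The KO libraries stood alone at nearly the same level, while every KI library lay below every WT library by a small step. The log2 fold change was 0.92 against the WT (SE 0.11, edgeR adjusted p = 4.55e-05) and 1.12 against the KI cells (SE 0.08, edgeR adjusted p = 3.13e-08). The KI cells were not called different from the WT (-0.17, SE 0.13, edgeR adjusted p = 0.305).

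*Txnrd1*, the cytosolic thioredoxin reductase, spread more within the lines. The values were 91.8, 120.0, 104.9 and 129.2 CPM in the KO, 63.8, 74.6 and 85.4 CPM in the WT, and 99.2, 101.0, 98.6 and 87.3 CPM in the KI libraries. Both edited lines lay above the WT libraries and overlapped each other. The log2 fold change was 0.56 in the KO cells (SE 0.15, edgeR adjusted p = 0.00951). In the KI cells it was 0.37 (SE 0.14, edgeR adjusted p = 0.0483), a call that was lost in 10 of 16 alternatives, among them leaving out WT replicate 5-6 or 7 or KI replicate 5, 6 or 7 (0.27 to 0.37, edgeR adjusted p = 0.105 to 0.142) and the replicate block (0.39, edgeR adjusted p = 0.089). The KO and KI cells differed by 0.21 (SE 0.11, edgeR adjusted p = 0.104), which was called without KO replicate 5 (0.29, edgeR adjusted p = 0.02).

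A further 3 of the genes encode enzymes of the pentose phosphate pathway, which makes NADPH from glucose and exchanges sugars with glycolysis. *Pgd*, the second NADPH-producing dehydrogenase of its oxidative branch, was at 200.2, 206.9, 190.7 and 211.3 CPM in the KO, 89.2, 81.6 and 106.0 CPM in the WT, and 158.2, 169.9, 158.6 and 125.3 CPM in the KI libraries. The 3 lines did not overlap, and all 3 steps were called. *Pgd* was 2.19 times higher in the KO than in the WT cells by the means (log2 fold change 1.11, SE 0.13, edgeR adjusted p = 3.49e-05) and 1.66 times higher in the KI than in the WT cells (0.73, SE 0.15, edgeR adjusted p = 0.00211). The step from the KI to the KO cells was 0.41 (SE 0.10, edgeR adjusted p = 0.00224).

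*Taldo1*, transaldolase of the non-oxidative branch, was at 237.6, 257.9, 245.4 and 258.0 CPM in the KO, 122.1, 119.1 and 142.8 CPM in the WT, and 207.2, 238.9, 248.7 and 164.0 CPM in the KI libraries. Both edited lines lay above the WT, and KI replicates 6 and 7 reached the KO range. The log2 fold change was 0.94 in the KO (SE 0.12, edgeR adjusted p = 7.44e-05) and 0.75 in the KI cells (SE 0.16, edgeR adjusted p = 0.00313). The KO and KI cells were not called different (0.22, SE 0.11, edgeR adjusted p = 0.113) except without KI replicate 7 (0.30, edgeR adjusted p = 0.0363).

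*Tkt*, transketolase of the same branch, went the other way, with 663.8, 657.6, 643.1 and 646.9 CPM in the KO, 801.7, 799.6 and 845.6 CPM in the WT, and 461.0, 472.9, 445.2 and 481.8 CPM in the KI libraries. The lines did not overlap, with the WT libraries highest and the KI libraries lowest. Against the WT the log2 fold change was -0.81 in the KI cells (SE 0.13, edgeR adjusted p = 0.000434) and -0.34 in the KO cells (SE 0.12, edgeR adjusted p = 0.0311). The KO call was lost without KO replicate 5, 6, 7 or 8 or WT replicate 7 (-0.35 to -0.33, edgeR adjusted p = 0.0631 to 0.0922). Scaled by library totals, not TMM, it was 0.07. *Tkt* was higher in the KO than in the KI cells (0.49, SE 0.08, edgeR adjusted p = 6.51e-05).

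*Sqstm1*, the gene of the autophagy receptor p62 that binds KEAP1, was at 690.3, 716.0, 660.8 and 738.4 CPM in the KO, 546.4, 496.9 and 535.7 CPM in the WT, and 554.2, 609.4, 629.8 and 444.5 CPM in the KI libraries. The KO libraries were the highest, and the KI libraries lay on both sides of the WT libraries. The log2 fold change was 0.39 against the WT (SE 0.12, edgeR adjusted p = 0.0181) and 0.33 against the KI cells (SE 0.11, edgeR adjusted p = 0.0162). The first was not called without KO replicate 6, KO replicate 8 or WT replicate 7 (0.37 to 0.38, edgeR adjusted p = 0.0528 to 0.0608). The KI cells were not called different from the WT (0.09, SE 0.16, edgeR adjusted p = 0.677).

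**Figure D2:**
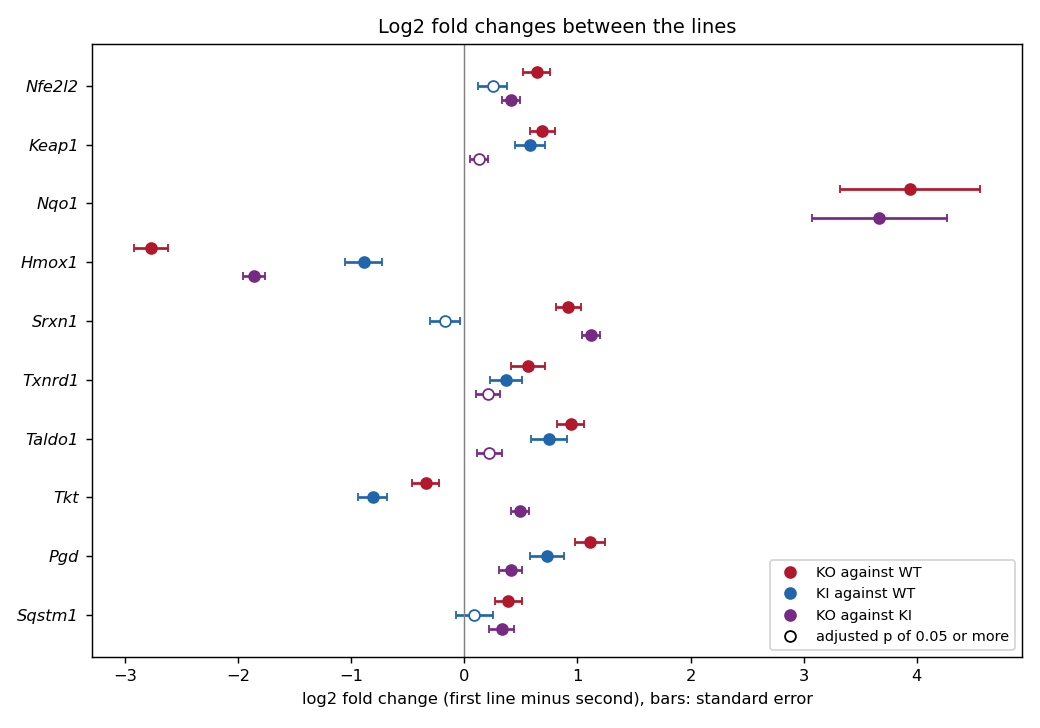
Log2 fold changes of the 10 genes (horizontal axis, first line minus second) with standard errors as bars, for KO against WT, KI against WT and KO against KI; filled points passed an adjusted p of 0.05 and open points did not. *Hmox1* lies below 0 in all 3 comparisons, *Keap1*, *Txnrd1* and *Taldo1* are called against the WT in both edited lines and not between them, and *Srxn1* and *Nqo1* are called where the KO cells are compared (*Nqo1* was not tested in KI against WT).

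By the calls, the 10 genes fell into several orders of level. *Pgd* stood highest in the KO, then in the KI, then in the WT cells, with every step called, and *Hmox1* and *Tkt* had orders with every step called as well, from WT through KI to KO and from WT through KO to KI. *Nfe2l2*, *Srxn1* and *Sqstm1* were called higher in the KO cells than in either other line, which were not called different from each other. In *Keap1*, *Txnrd1* and *Taldo1* it was the WT cells that stood apart, below both edited lines. *Nqo1* was called higher in the KO cells than in either other line, and those 2 were not tested against each other. These orders rest on the main fit. The calls of *Tkt* and *Sqstm1* in KO against WT and of *Txnrd1* in KI against WT were lost in some alternatives, as given above. A missing call does not show that 2 lines were alike.

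Several of these genes lie on chromosomes whose genes had shifted in the same direction, and the part of this in the results was not tested. In the KO against the WT cells, the median log2 fold change was 0.26 on chromosome 2, which holds *Nfe2l2* and *Srxn1*, 0.52 on chromosome 7 with *Taldo1*, and 0.30 on chromosome 4 with *Pgd*. It was -0.35 on chromosome 14 with *Tkt*, close to the -0.34 of *Tkt* itself, and -0.34 on chromosome 11, where *Sqstm1* rose. The medians of chromosome 8 with *Nqo1* and *Hmox1* (-0.06), chromosome 9 with *Keap1* (-0.04) and chromosome 10 with *Txnrd1* (0.05) were near 0. In the KI against the WT cells chromosome 14 had a median of -0.38, and the other 7 chromosomes lay between -0.09 and 0.21. Between the KO and KI cells chromosome 2 had a median of 0.38, close to the 0.41 of *Nfe2l2* and below the 1.12 of *Srxn1*, and chromosome 7 had 0.43, above the 0.22 of *Taldo1*. There the medians were -0.23 on chromosome 9, -0.27 on chromosomes 8 and 11, -0.06 on chromosome 10, 0.10 on chromosome 14 and 0.14 on chromosome 4.

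The rest of the pathway was read from 9 lists of 103 genes, also chosen with earlier results of these data known. Of these genes, 97 could be tested in KO against WT. Among them 29 were called higher and 33 lower, 63.9% in all, with a median log2 fold change of 0.09, where 55.1% of all genes were called (26.7% higher and 28.4% lower). In the KI cells 10 of 96 were called higher than in the WT and 33 lower (median -0.19), where 21.2% and 21.0% of all genes were. Between the KO and KI cells 40 of 96 were higher and 20 lower (median 0.19), where 27.0% of all genes were called in each direction. The balance of these counts depends on the scaling. With library totals the lists held 51 higher and 10 lower in KO against WT, 24 higher and 13 lower in KI against WT, and 44 higher and 14 lower in KO against KI. The whole table shifted as well. Of the calls over all genes 72.8%, 76.3% and 56.1% were higher in these comparisons, against 48.5%, 50.2% and 50% with TMM. The library-total counts of single lists are to be read beside these shares. The counts for each list below are those with TMM, and the counts with library totals follow them.

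**Figure D3:**
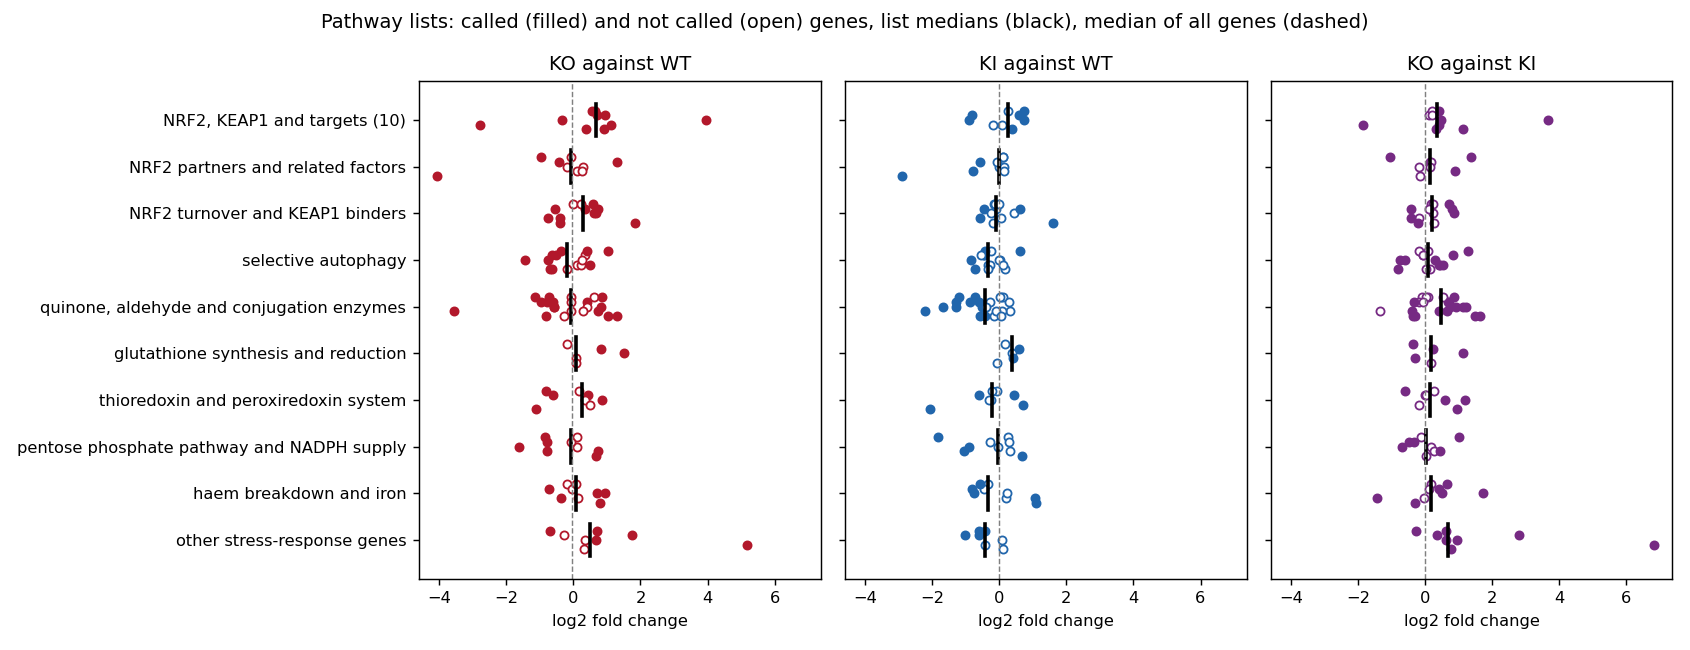
Log2 fold changes (horizontal axis) of the 10 genes (top row) and of the genes of the 9 pathway lists in the 3 comparisons; each point is a gene, filled where called, the black lines are the medians of the lists and the dashed lines the median of all genes tested. The 10 genes have a median of 0.67 in KO against WT, while the medians of the 9 lists lie between -0.19 and 0.51, all with TMM scaling.

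Among the partners and relatives of NRF2, 1 of 9 tested was called higher and 3 lower in the KO than in the WT cells (3 and 2 with library totals, 2 and 3 without WT replicate 8). *Maff*, a small MAF protein that pairs with NRF2, was at 63.8 ± 7.33 CPM in the KO (SD, n = 4) against 122.3 ± 25.9 CPM in the WT libraries (SD, n = 3). The difference was -0.96 on the log2 scale (SE 0.16, edgeR adjusted p = 0.000493). *Crebbp*, a histone acetyltransferase and coactivator, rose by 1.29 (SE 0.24, edgeR adjusted p = 0.00106). *Nfe2*, the haematopoietic relative of NRF2, had 27, 24 and 22 counts in the WT libraries, 0 in each KO library and 0 to 6 in the KI libraries. *Bach1*, the repressor of *Hmox1*, was at 62.4 CPM in the KO, 57.5 CPM in the WT and 33.6 CPM in the KI cells. It was not called between KO and WT (0.10, SE 0.17, edgeR adjusted p = 0.645) and was lower in the KI than in the WT cells (-0.78, SE 0.16, edgeR adjusted p = 0.00219). With library totals the latter was not called (-0.47, edgeR adjusted p = 0.0913).

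Of 12 genes of NRF2 turnover and KEAP1 binding, 6 were called higher and 4 lower in the KO against the WT cells (6 and 0 with library totals). Without KO replicate 6, 7 or 8 or WT replicate 5-6 or 7, 4 were higher and 3 or 4 lower. *Cul3*, the scaffold of the ligase that KEAP1 serves, was at 171.0 and 169.1 CPM in the KO and WT cells and was not called. *Palb2*, a DNA repair protein that can bind KEAP1, rose in both edited lines, by 1.85 in the KO (SE 0.20, edgeR adjusted p = 2.51e-05) and 1.60 in the KI cells (SE 0.23, edgeR adjusted p = 0.000162). *Pgam5*, a mitochondrial phosphatase bound by KEAP1, also rose in both, by 0.72 in the KO (SE 0.12, edgeR adjusted p = 0.000565) and 0.63 in the KI cells (SE 0.14, edgeR adjusted p = 0.00292). Among 15 genes of selective autophagy, the process that p62 serves, 3 were higher and 7 lower in the KO against the WT cells (7 and 1 with library totals, 1 and 5 without KO replicate 8, 5 and 7 without WT replicate 8). *Gabarap*, an ATG8 protein of the autophagosome, fell by 1.44 on the log2 scale (SE 0.18, edgeR adjusted p = 7.4e-05), while its relative *Map1lc3a* rose by 1.02 (SE 0.14, edgeR adjusted p = 0.000118).

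Of the 22 quinone, aldehyde and conjugation enzymes, 6 were called higher and 9 lower in the KO against the WT cells, and 11 higher and 4 lower with library totals. *Nqo2*, the relative of *Nqo1*, was at 57.3 and 59.0 CPM in the KO and WT cells and was not called. *Akr1b3*, aldose reductase, rose by 1.31 (SE 0.18, edgeR adjusted p = 0.000118), and *Gstm1*, a glutathione transferase, by 0.84 (SE 0.16, edgeR adjusted p = 0.00108). *Cbr3* had the largest change of the list in the KO cells, a fall of 3.55 on the log2 scale (SE 0.60, edgeR adjusted p = 0.00054). It was at 0.189 CPM in the KO and 2.95 CPM in the WT cells. *Aldh1a1*, a retinaldehyde dehydrogenase, fell by 1.13 on the log2 scale (SE 0.17, edgeR adjusted p = 0.00024). With TMM, *Gstp1* (-0.60, SE 0.15, edgeR adjusted p = 0.0054) and *Mgst1* (-0.57, SE 0.22, edgeR adjusted p = 0.0426) were also called lower in the KO cells. In the KI against the WT cells 0 of the 22 were called higher and 11 lower with TMM (3 and 6 with library totals, and 1 higher and 8 or 9 lower without WT replicate 5-6, WT replicate 8 or KI replicate 8), with *Mgst1* at -1.67 (SE 0.21, edgeR adjusted p = 5.86e-05) and *Gstp1* at -1.30 (SE 0.16, edgeR adjusted p = 5.14e-05).

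In glutathione synthesis and reduction 2 of 5 genes tested were called higher in the KO than in the WT cells and 0 lower (4 and 0 with library totals, 2 and 1 with DESeq2). *Gss*, glutathione synthetase, was at 83.8 CPM in the KO, 29.3 CPM in the WT and 37.97 CPM in the KI cells, and the KO cells were higher than the WT (edgeR adjusted p = 3.05e-05) and the KI cells (1.14 on the log2 scale, SE 0.09, edgeR adjusted p = 1e-07). *Gclm*, the modifier subunit of the rate-limiting ligase, rose by 0.82 (SE 0.14, edgeR adjusted p = 0.00058), and in the KI cells by 0.59 (SE 0.14, edgeR adjusted p = 0.00433). Its catalytic partner *Gclc* (-0.20), glutathione reductase *Gsr* (0.09) and the cystine transporter *Slc7a11* (0.09), all of them known NRF2 targets, were not called in the KO against the WT cells with TMM. For *Gclc* every KO library (693 to 780 CPM) still lay below every WT library (781.1 to 899.3 CPM). With library totals *Gsr* (0.49, edgeR adjusted p = 0.0278) and *Slc7a11* (0.51, edgeR adjusted p = 0.0304) were called, and *Gclc* was at 0.21 (edgeR adjusted p = 0.25). In the thioredoxin and peroxiredoxin list 2 of 8 were higher and 3 lower (5 and 1 with library totals, 1 and 1 without WT replicate 7, and 1 higher and 2 or 3 lower without KO replicate 5, 6 or 7). *Txnip*, the inhibitor of thioredoxin, fell by 1.11 on the log2 scale in the KO (SE 0.12, edgeR adjusted p = 3.15e-05) and by 2.05 in the KI cells (SE 0.15, edgeR adjusted p = 1.32e-06). *Sesn2*, a stress-induced sestrin, rose in the KO cells by 0.86 (SE 0.21, edgeR adjusted p = 0.00443). *Prdx1*, a peroxiredoxin, fell there by 0.82 on the log2 scale with TMM (SE 0.23, edgeR adjusted p = 0.00998), with overlapping KO and WT libraries. The mitochondrial reductase *Txnrd2* was not called (0.34, SE 0.16, edgeR adjusted p = 0.0976).

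Around the pentose phosphate enzymes, 2 of 9 genes tested were called higher and 4 lower in the KO against the WT cells (4 and 2 with library totals, 1 and 4 without KO replicate 6). *G6pdx*, the entry enzyme and source of NADPH before *Pgd*, was at 61.3, 56.2 and 67.1 CPM in the KO, WT and KI cells and was not called in any comparison with TMM (KO against WT 0.11, SE 0.11, edgeR adjusted p = 0.453), but was called in the KI against the WT cells with library totals (0.58, edgeR adjusted p = 0.0286). *H6pd*, its counterpart in the endoplasmic reticulum, fell by 0.78 on the log2 scale in the KO cells (SE 0.13, edgeR adjusted p = 0.000405). *Idh1*, another cytosolic source of NADPH, fell by 1.63 in the KO (SE 0.19, edgeR adjusted p = 4.61e-05) and by 0.90 in the KI cells (SE 0.19, edgeR adjusted p = 0.00244). *Nadk*, the kinase that makes NADP, rose by 0.74 in the KO cells (SE 0.12, edgeR adjusted p = 0.000358). With TMM *Rpia* rose by 0.67 in the KO (SE 0.21, edgeR adjusted p = 0.0172) and by 0.67 in the KI cells (SE 0.21, edgeR adjusted p = 0.0198). *Rpe* was at -0.79 in the KO (SE 0.21, edgeR adjusted p = 0.0074) and -1.04 in the KI cells (SE 0.23, edgeR adjusted p = 0.00302), with overlapping libraries. The enzymes of the route thus moved apart with TMM. *Pgd*, *Taldo1* and *Rpia* were up and *Tkt* and *Rpe* down in both edited lines, and *G6pdx* was not called. The KO call of *Tkt* was lost without some libraries.

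Among the 9 genes of haem breakdown and iron, 3 were higher and 2 lower in the KO than in the WT cells (5 and 0 with library totals). Only 1 was lower without KO replicate 6, 7 or 8, WT replicate 5-6 or WT replicate 8. *Hmox2*, the constitutive haem oxygenase, was at 59.3, 67.2 and 52.9 CPM in the KO, WT and KI cells and was not called (KO against WT -0.20, SE 0.15, edgeR adjusted p = 0.29). *Blvrb*, a biliverdin reductase, rose in the KO by 0.94 (SE 0.14, edgeR adjusted p = 0.000208) and fell by 0.75 in the KI cells (SE 0.18, edgeR adjusted p = 0.00447). The other biliverdin reductase of the list, *Blvra*, was at 39.6 and 40.5 CPM in the KO and WT cells. It was not called with TMM (-0.05, SE 0.22, edgeR adjusted p = 0.86). *Alas1*, the first enzyme of haem synthesis, rose by 0.78 in the KO (SE 0.16, edgeR adjusted p = 0.00173) and by 1.10 in the KI cells (SE 0.17, edgeR adjusted p = 0.000258). The ferritin chains parted in the KO cells, where *Ftl1* rose by 0.69 (SE 0.15, edgeR adjusted p = 0.00229) and *Fth1* fell by 0.72 on the log2 scale (SE 0.15, edgeR adjusted p = 0.00234). With TMM, *Fth1* fell in the KI cells as well (-0.82, SE 0.16, edgeR adjusted p = 0.00162), where *Ftl1* was not called (0.22, SE 0.16, edgeR adjusted p = 0.279). *Slc40a1*, the iron exporter ferroportin, rose by 1.08 in the KI cells (SE 0.14, edgeR adjusted p = 9.72e-05). In the KO cells it was called lower than in the WT with TMM (-0.38, SE 0.14, edgeR adjusted p = 0.0422), with overlapping libraries. Under scaling by library totals, the falls of *Fth1* in the KO (-0.31) and of *Blvrb* in the KI cells (-0.42) were not called.

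**Figure D4:**
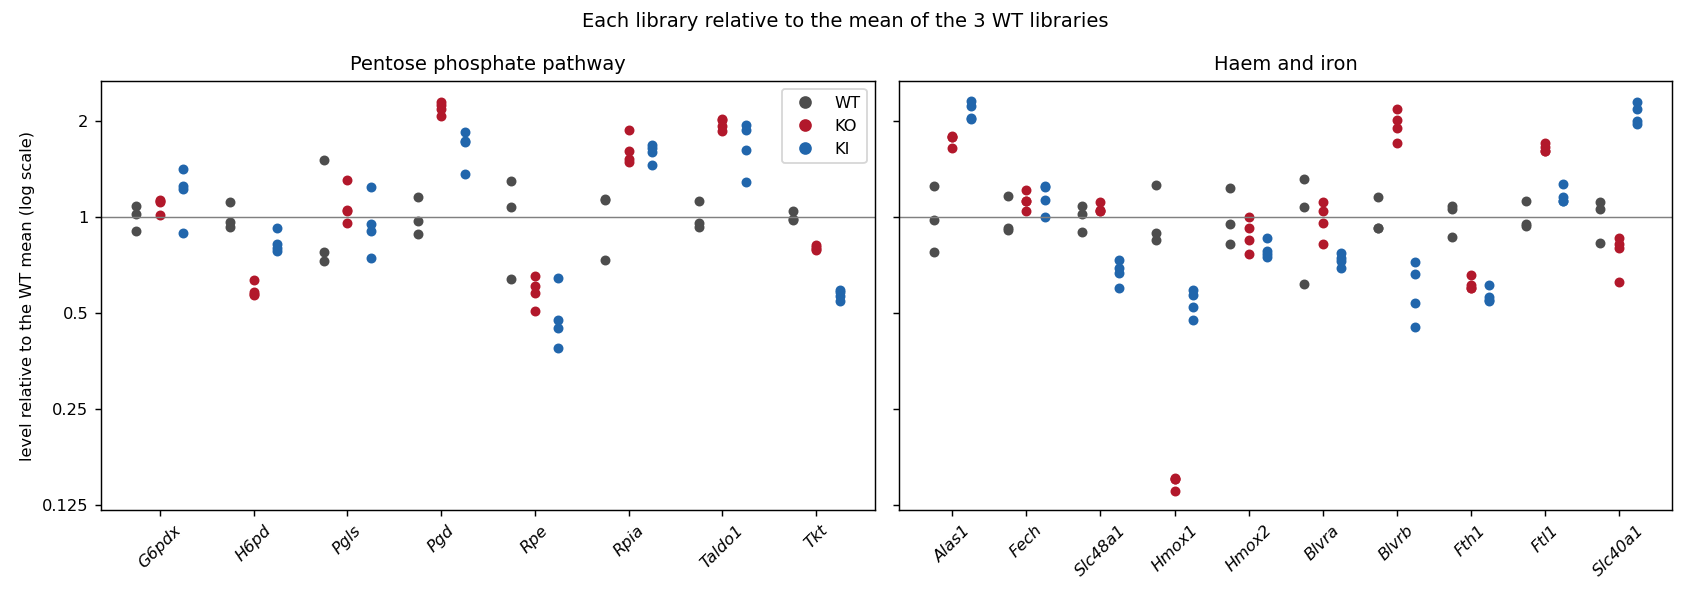
Level of each library relative to the mean of the 3 WT libraries (vertical axis, log scale) for the pentose phosphate pathway (left) and for haem and iron (right), with each point a WT, KO or KI library. *Pgd* and *Taldo1* lie above 1 and *Tkt* below 1 in all KO and KI libraries, and in the KO libraries *Hmox1* lies lowest of the haem and iron genes, while *Alas1*, *Blvrb* and *Ftl1* lie above 1.

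Of the 8 other stress-response genes, 4 were called higher and 1 lower in the KO against the WT cells, and 7 were higher and 1 lower in the KO than in the KI cells. With library totals these were 6 and 0, and 7 and 0, and the 1 lower in KO against KI, *Osgin1* (-0.26, edgeR adjusted p = 0.0348), was lost in 8 of 16 alternatives (-0.32 to -0.20 over all 16), among them leaving out KO replicate 5, 6 or 7 or KI replicate 5, 7 or 8. *Pir*, the iron-binding protein pirin and a known NRF2 target, was found with 429, 430, 496 and 459 counts in KO, 0, 0 and 22 in WT libraries, and 0, 2, 6 and 0 in KI libraries. Like *Nqo1*, it was found in every KO library, and all WT counts came from WT replicate 8. Its log2 fold change was 5.17 against the WT (SE 0.63, edgeR adjusted p = 6.18e-05) and 6.83 against the KI cells (SE 0.35, edgeR adjusted p = 5.04e-10). The first stayed called in all 15 alternatives but ran from 3.44 to 7.67, and without WT replicate 8 no WT count is left. *Trim16*, a ubiquitin ligase that acts on NRF2 and p62, was at 15.8 CPM in the KO, 4.61 CPM in the WT and 2.22 CPM in the KI cells, a rise of 1.75 in the KO against the WT (SE 0.21, edgeR adjusted p = 5.48e-05). *Sod1*, the cytosolic superoxide dismutase, rose by 0.71 (SE 0.13, edgeR adjusted p = 0.000747) and *Osgin1*, an oxidative stress-induced growth inhibitor, fell by 0.70 on the log2 scale (SE 0.13, edgeR adjusted p = 0.000852), a call that was lost with library totals (-0.29).

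Over the 11 libraries, the genes whose levels were most like those of *Nfe2l2*, among 12649 annotated genes compared, were *Myadm*, *Hyou1* and *Tnfrsf1b*, each with a Pearson correlation of 0.99 of the log2 levels. The points fall into 3 lines and share libraries and depth, so this likeness mostly describes the means of the lines, and it is given as a description only.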

How the data were processed

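Gene expression of AML12 cells was measured by RNAseq (4 KO, 3 WT, 4 KI libraries). The authors deposited counts of reads per gene, without normalization. HISAT2, TopHat2, Bowtie2 and StringTie stand in the submitters' processing notes without roles. The genome build and the annotation are not given in the sources used here. The library protocol names no strand marking, so reads of overlapping genes on opposite strands cannot be told apart.

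The table holds 26472 lines, of which 10 with broken fields were left out. Of the 26462 used, 2960 are newly assembled entries, which took 18.8 to 25.3% of counts in the WT, 11.9 to 13.4% in the KO and 9.65 to 16.4% in the KI libraries. Columns of FPKM with damaged decimals and of the authors' own comparisons (fold changes and adjusted p-values) were not used here. Total counts were 30380360 to 38422243 in the KO, 29840366 to 30364098 in the WT and 32360709 to 35335070 in the KI libraries. None of the 15 pairs of libraries within a line agreed within sampling noise.

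The tests were run with R 4.3.3, edgeR 4.0.16, limma 3.58.1 and DESeq2 1.42.0, and the figures with Python 3.11.15 and matplotlib 3.10.9. Each pair of lines was fitted on its own libraries over all genes that passed edgeR's filter for low counts, with TMM scaling, robust dispersion and a prior count of 2. A gene was called at an adjusted p under 0.05. The fold of a gene at 0 was set against a floor of 3 counts over the group. Alternatives changed the scaling, the filter, the tool, the libraries in the fit, the replicate block and the summing of entries. On simulated data with known changes, the edgeR test found 160 of 199 changed genes in the KO against WT design (80.4%). There were 8 false calls among 13233 genes. In KI against WT it found 158 of 197 (80.2%), with 9 false calls among 13361 genes. In KO against KI it found 174 of 195 (89.2%), with 12 false calls among 13081 genes. In the real data a far larger share of genes was called, 55.1%, 42.3% and 54% in these comparisons. Recovery and false calls with so many differing genes were not tested. The simulated figures therefore do not measure the accuracy of the calls given here.

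The 10 genes, the pathway lists and the markers were chosen with earlier results of these data known. Pathway genes named are up to 3 called genes per list and comparison with the largest change, and relatives of the 10 genes named beforehand by role. Those printed were chosen from this set, and *Cul3*, *H6pd*, *Nadk*, *Rpia*, *Gstm1*, *Blvra*, *Ftl1* and *Osgin1* were added after their values were seen. Start site windows are from RefSeq (GRCm38.p6).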

Additional observations from a re-analysis of the deposited data

Results flagged for a closer look

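In each KO and KI group of 4, the gap of the highest or lowest library to the nearest other, divided by the range of the group, was set against Dixon's critical value at 95%. Of 127 groups from 64 genes 14 were above it, where chance at 1 in 20 gives 6.35. That expected number assumes normally spread values, and the groups share libraries, so it is given for scale only. The cause was not tested.

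Of the 10 genes, *Nqo1* stood out in KI replicate 7 (1), with 3 counts against 0 in the other KI libraries, and *Hmox1* in KO replicate 5 (0.951), at 12.5 CPM against 13.7 CPM in the others. With the other KI libraries at 0, any count of *Nqo1* gives a ratio of 1.

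Among the pathway genes, KO libraries stood out with a low value for *Gsr* in KO replicate 5 (0.84; 72.9 against 86.6 to 89.2 CPM), *Calcoco1* in KO replicate 6 (0.93; 36.7 against 42.4 to 42.9 CPM), *Alas1* in KO replicate 7 (0.925; 35.3 against 38.2 to 38.4 CPM) and *Syvn1* in KO replicate 5 (0.842; 53.1 against 64.5 to 66.6 CPM). High values were found for *Map1lc3a* in KO replicate 7 (0.849; 25.8 against 22.4 to 22.9 CPM) and *Shpk* in KO replicate 5 (0.856; 8.58 against 5.82 to 6.22 CPM).

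In the KI libraries, replicate 8 was low for *Gclc* (0.885; 720 against 984 to 1018 CPM) and *Tbk1* (0.974; 37.7 against 51.6 to 52.0 CPM) and high for *Idh1* (0.847; 545 against 399 to 421 CPM) and *Mafg* (0.847; 55.6 against 46.7 to 48.0 CPM). Replicate 7 was high for *Txnip* (0.89; 88.4 against 65.7 to 68.2 CPM) and *Ugt1a6a* (0.871; 59.5 against 38.4 to 41.2 CPM).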

How the results depend on the processing

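Scaling by library totals in place of TMM moved the median of all genes (log2 fold change) from -0.03 to 0.38 in KO against WT, from -0.02 to 0.30 in KI against WT and from 0.00 to 0.06 in KO against KI, and the median of the 10 genes to 1.07, 0.57 and 0.43. Over the whole table, genes called higher and lower in KO against WT went from 3568 and 3796 to 5675 and 2124, and in KI against WT from 2874 and 2848 to 4620 and 1438 (72.8% and 76.3% of calls higher, against 48.5% and 50.2%). In this scaling *Tkt* reversed to 0.07 in KO against WT (edgeR adjusted p = 0.669) and *Srxn1* to 0.15 in KI against WT (edgeR adjusted p = 0.449), and *Nfe2l2* was called in KI against WT (0.57, edgeR adjusted p = 0.0169). The number of the 10 genes called lower in KO against WT was 1 with library totals and without the filter (*Tkt* was lost, -0.33 at an edgeR adjusted p of 0.0764), and 1 to 2 with any library left out. Leaving out libraries gave 8 to 10 of the 10 genes called in KO against WT, 5 to 7 in KI against WT and 7 to 8 in KO against KI. The cause of these changes was not tested. The fitted fold of *Nqo1* in KO against WT, 3.94, was called in all 16 alternatives but ran from 0.89 with limma on log2(CPM + 1) to 6.91 with DESeq2. With no WT count, its size depends on the method and on any constant that the method adds. *Nqo1* stood at 23 to 42 counts in a KO library, so counting limits its precision.

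For libraries with the same replicate number, correlations of their deviations across genes ran from -0.19 to 0.21, and from 0.02 to 0.21 in KO against WT. In KO against WT, KI against WT and KO against KI, 4 of 7, 1 of 7 and 0 of 8 libraries were closest to their own number. With so few libraries this check cannot exclude a pairing, and the main tests left the numbers out. With the replicate as a block, 10, 5 and 7 of the 10 genes were called in these comparisons and 8183, 4891 and 6453 genes over the whole table, against 7364, 5722 and 7171 without it. Of the 10 genes, *Txnrd1* in KI against WT was the call that changed.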
